A study of Mus musculus with 28 samples.

Results

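Expression of 10 fibroblast marker genes (Pdgfra, Tcf21, Pi16, Dpp4, Fap, Meox1, Cthrc1, Runx1, Scx and Acta2) was followed in ventricular tissue of mice that lose plakophilin 2, a desmosome protein, from their cardiomyocytes. The genes were taken by symbol from a table of 39152 genes, and all 10 were present and passed the filter on low counts in both ventricles. Of these, 4 mark resting fibroblasts (Pdgfra, Tcf21, Pi16 and Dpp4) and 6 are used as marks of fibroblast activation (Fap, Meox1, Cthrc1, Runx1, Scx and Acta2).

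The study asked how gene expression in this model of arrhythmogenic right ventricular cardiomyopathy (ARVC) responds to the dose of TN-401, an AAV9 vector that carries human PKP2. RNA was sequenced from 28 libraries of 16 C57BL6 mice, 16 of the left ventricle (LV) and 12 of the right ventricle (RV), and 12 animals gave both. The WT group were Pkp2 fl/fl littermates without Cre that received vehicle (HBSS), with 5 LV and 3 RV libraries. The cKO group carried αMyHC-Cre-ER(T2) and Pkp2 fl/fl, received HBSS and had Pkp2 deleted by tamoxifen, with 4 LV and 4 RV libraries. The 3E13 and 6E13 groups were cKO animals given TN-401 into the retro-orbital sinus at 3E13 or 6E13 vector genomes per kg, a week before tamoxifen, with 4 LV and 2 RV libraries at 3E13 and 3 of each at 6E13. The study's methods give an age of 3 to 10 months and collection 9 weeks after induction, while the series is titled as a study at about 10 weeks. No separate collection time is given for the cKO group in the sources used here. In the study's other experiments vehicle-treated cKO mice died or reached a humane endpoint before 9 weeks. The cKO group was therefore likely collected earlier, and a difference in collection time cannot be told apart from the treatment. Cre was driven by a cardiomyocyte promoter, so the design did not target the fibroblasts.

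Fibroblasts of the adult heart carry PDGF receptor alpha and the transcription factor Tcf21, and keep the interstitial matrix. A population near vessels and the outer layers of tissues expresses Pi16 and Dpp4 and is described as a reserve of progenitor-like fibroblasts. After injury fibroblasts can switch on Fap, Meox1, Runx1 and Cthrc1 while they lay down collagen, and those that become myofibroblasts assemble stress fibres of Acta2. None of the genes is restricted to fibroblasts: Runx1 is also expressed by blood cells, Acta2 by vascular smooth muscle, Scx by tendon and valve cells, and Dpp4 by lymphocytes and endothelium.

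In GRCm39 all 10 genes are annotated as protein coding. Fap (chromosome 2, 62331286 to 62404419, minus strand) and Dpp4 (chromosome 2, 62159798 to 62242576, minus strand), which encode related serine peptidases, lie on the same strand. Runx1 is on chromosome 16 (92398354 to 92623037, minus strand), Pi16 on chromosome 17 (29536654 to 29549567, plus strand), and Pdgfra on chromosome 5 (75311994 to 75358876, plus strand). Scx (chromosome 15, 76341563 to 76344281, plus strand) lies inside Bop1, a ribosome biogenesis gene on the opposite strand, and Acta2 (chromosome 19, 34217737 to 34232990, minus strand) overlaps the 3′ end of Stambpl1. The 250 bases before the start of the canonical transcript (GENCODE, GRCm39) are printed for an activation gene that fell with both doses in the LV (Fap), for Runx1 and for Pi16, with 2 motifs in capitals on either strand: the E-box CANNTG, which is bound by the basic helix-loop-helix family to which Tcf21 and Scx belong, and TGTGGT, the core bound by Runx proteins (its reverse complement reads ACCACA).
Fap, chr2:62404420-62404669, minus strand: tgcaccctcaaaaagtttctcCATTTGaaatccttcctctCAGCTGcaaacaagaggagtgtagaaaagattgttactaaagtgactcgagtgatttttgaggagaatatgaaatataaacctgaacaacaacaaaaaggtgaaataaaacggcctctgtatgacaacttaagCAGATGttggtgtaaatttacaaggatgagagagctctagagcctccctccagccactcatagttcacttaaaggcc
Runx1, chr16:92623038-92623287, minus strand: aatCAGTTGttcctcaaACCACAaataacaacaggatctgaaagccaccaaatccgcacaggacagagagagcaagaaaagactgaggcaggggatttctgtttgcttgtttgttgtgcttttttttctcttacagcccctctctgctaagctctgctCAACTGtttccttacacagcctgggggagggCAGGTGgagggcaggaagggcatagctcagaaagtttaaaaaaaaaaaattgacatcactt
Pi16, chr17:29536404-29536653, plus strand: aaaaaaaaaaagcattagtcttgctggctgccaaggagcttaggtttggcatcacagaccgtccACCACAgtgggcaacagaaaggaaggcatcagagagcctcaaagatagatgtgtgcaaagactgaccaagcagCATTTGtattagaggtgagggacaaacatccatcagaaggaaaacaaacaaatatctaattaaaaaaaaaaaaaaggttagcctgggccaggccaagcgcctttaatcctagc
The Fap stretch held 3 E-boxes and no TGTGGT, the Runx1 stretch 3 E-boxes and 1 TGTGGT, and the Pi16 stretch 1 of each. Of the 250-base stretches before 21770 protein-coding genes, 64.8% held an E-box, 30.2% held at least 2 and 13.0% held TGTGGT. The matches describe these letters only.

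The libraries held 19364764 to 39381176 estimated reads. Mitochondrial transcripts took 18.2% to 26.7% of the reads in the cKO LV against 33.5% to 37.0% in the WT LV, and 15.003% to 23.2% against 35.7% to 39.6% in the RV. Mouse Pkp2 was changed in cKO against WT by -1.39 ± 0.15 (log2, SE, adjusted p = 1.31e-05) in the LV and -1.75 ± 0.13 (log2, SE, adjusted p = 6.69e-06) in the RV, and the human transgene was at 0 in every WT and cKO library and at 167 to 535 CPM (counts scaled to library size) in every treated one. In the LV the transgene ranges of the doses overlapped, at 167 to 364 CPM at 3E13 and 333 to 535 CPM at 6E13. In the RV they did not overlap, at 242 and 277 CPM at 3E13 and at 295 CPM or more at 6E13. Levels are given as CPM scaled by TMM within each ventricle. A change is called at an adjusted p under 0.05 in edgeR's quasi-likelihood test over all genes of a ventricle, and fold changes are log2 values with their SE. Values within a group are listed in order of animal number: 248, 626, 636, 637 and 647 in the WT LV, 636, 637 and 647 in the WT RV, 177, 180, 257 and 264 in cKO, 181, 182, 252 and 253 in the 3E13 LV, 181 and 253 in the 3E13 RV, and 250, 631 and 645 at 6E13. In whole tissue, more fibroblasts, more RNA of a gene per fibroblast and less RNA from other cells cannot be told apart. The summed level of 8 cardiomyocyte genes was 97873 to 108212 CPM in the WT LV and 33592 to 80306 CPM in the cKO LV. In the RV it was 93875 to 108403 CPM in WT and 33499 to 67027 CPM in cKO.

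The cKO RV libraries of animals 180 and 257 carried transcripts of atrial muscle. Myl7, an atrial myosin light chain, was at 87.9 and 47.3 CPM in them, at 0.039 and 2.19 CPM in the other cKO RV libraries and at or below 0.64 CPM in the WT RV. Without both libraries the same number of members (8 of 10) was called in cKO against WT, Pdgfra fell at 3E13 together with Fap and Runx1, and 5 members in place of 3 fell at 6E13. In the LV animal 177 stood apart from the other cKO hearts by its low cardiomyocyte and high macrophage transcripts, and results that rest on it are given with and without it. Leaving out the libraries with most Myl7 was chosen after the data had been seen. The member counts without those libraries are not set beside the share of all genes called in the same fits, so they are a description only.

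Loss of Pkp2 was accompanied by higher levels of most of these genes. In the LV 6 of the 10 members rose and none fell, where 19.7% of 16410 genes tested rose, and the members' median log2 change was 1.18 against 0.05 over all genes tested. In the RV 8 of 10 rose and none fell, where 19.8% of 17307 genes tested rose, with a median of 1.60 against 0.06. Pdgfra, Pi16, Fap, Meox1, Cthrc1 and Runx1 rose in both ventricles, Tcf21 and Scx passed the test in the RV only, and Dpp4 and Acta2 in neither.

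Pdgfra, the receptor by which fibroblasts respond to PDGF-A and PDGF-C, rose with the smallest SE of the 10 members in both ventricles. The 5 WT LV libraries held 45.2, 54.0, 53.6, 41.1 and 48.0 CPM and the 4 cKO LV libraries 120.1, 112, 103 and 113 CPM. In the RV the 3 WT libraries held 61.0, 54.9 and 65.4 CPM and the 4 cKO libraries 187, 196, 152 and 205 CPM. The groups did not overlap in either ventricle, and the SD over the cKO LV libraries was 6.88 CPM around a mean of 112. The change was 2.32-fold in the LV, 1.21 ± 0.11 (log2, SE, adjusted p = 2.96e-06), and 3.06-fold in the RV, 1.61 ± 0.14 (log2, SE, adjusted p = 1.31e-05).

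Tcf21, a transcription factor required for the formation of cardiac fibroblasts, was at 4.16, 3.03, 3.99, 3.06 and 2.97 CPM in the WT LV and 4.68, 4.69, 8.46 and 4.68 CPM in the cKO LV. In cKO 3 of the 4 hearts lay at 4.68 to 4.69 CPM and animal 257 stood above them, and no cKO library overlapped WT. In the RV the WT libraries held 3.25, 5.16 and 4.53 CPM and the cKO libraries 18.996, 9.78, 13.6 and 8.27 CPM, with no overlap. The difference was 0.71 ± 0.28 (log2, SE, adjusted p = 0.0567) in the LV, which missed the threshold, and 1.55 ± 0.29 (log2, SE, adjusted p = 0.00134) in the RV. The epicardium is a layer that also expresses Tcf21. Of 7 epicardial markers, 3 passed the filter in the LV and all 3 rose, and 6 passed in the RV and 2 rose. Wt1, an epicardial transcription factor, rose by 1.48 ± 0.35 (log2, SE, adjusted p = 0.00406) in the LV and 1.40 ± 0.32 (log2, SE, adjusted p = 0.00533) in the RV. Uroplakin 3b (Upk3b), a defining gene of that layer, was at 0.047 to 0.315 CPM in the WT LV, 0 to 0.15 CPM in the cKO LV, 0.295 to 0.741 CPM in the WT RV and 0.232 to 3.01 CPM in the cKO RV, and its part in the Tcf21 levels was not tested.

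Pi16 encodes a secreted peptidase inhibitor. Its WT LV libraries held 18.1, 20.1, 28.2, 23.1 and 29.4 CPM and its cKO LV libraries 20.6, 109, 165 and 136 CPM. Animal 177 was the exception: its LV library sat within the WT range while the other 3 cKO hearts were above every WT library. Its RV library was also the lowest of the cKO RV libraries (129, 196, 192 and 324 CPM) but far above the WT RV (20.9, 23.4 and 20.2 CPM). Pi16 rose by 2.17 ± 0.38 (log2, SE, adjusted p = 5.47e-04) in the LV, and by 2.51 with animal 177 left out. In the RV it had the largest fitted change of the members other than Cthrc1, 3.29 ± 0.31 (log2, SE, adjusted p = 2.27e-05), or 9.77-fold. In the LV of animal 177 the summed level of 12 other resident fibroblast genes was 867 CPM, against 1880 to 2491 CPM in the other 3 cKO hearts, and 9 macrophage genes summed to 1263 CPM against 264 to 624 CPM.

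Dpp4, a cell surface peptidase, is the other marker of the Pi16 population. It held 2.70, 1.93, 2.92, 2.65 and 4.84 CPM in the WT LV and 4.31, 4.92, 4.47 and 3.43 CPM in the cKO LV, with overlap. RV values were 3.54, 4.48 and 7.29 CPM in WT and 13.2, 7.02, 6.31 and 6.57 CPM in cKO, where animal 177 stood above the rest. The differences were 0.51 ± 0.27 (log2, SE, adjusted p = 0.161) and 0.69 ± 0.31 (log2, SE, adjusted p = 0.106), neither past the threshold. Its relative Fap did pass it in both ventricles. Other members of that peptidase family showed no rise: Dpp8 differed by -0.13 ± 0.08 (log2, SE, adjusted p = 0.224) in the LV, and Dpp9 by -0.24 ± 0.12 (log2, SE, adjusted p = 0.116) in the LV and fell by 0.43 ± 0.10 (adjusted p = 0.00542) in the RV.

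**Figure D1:**
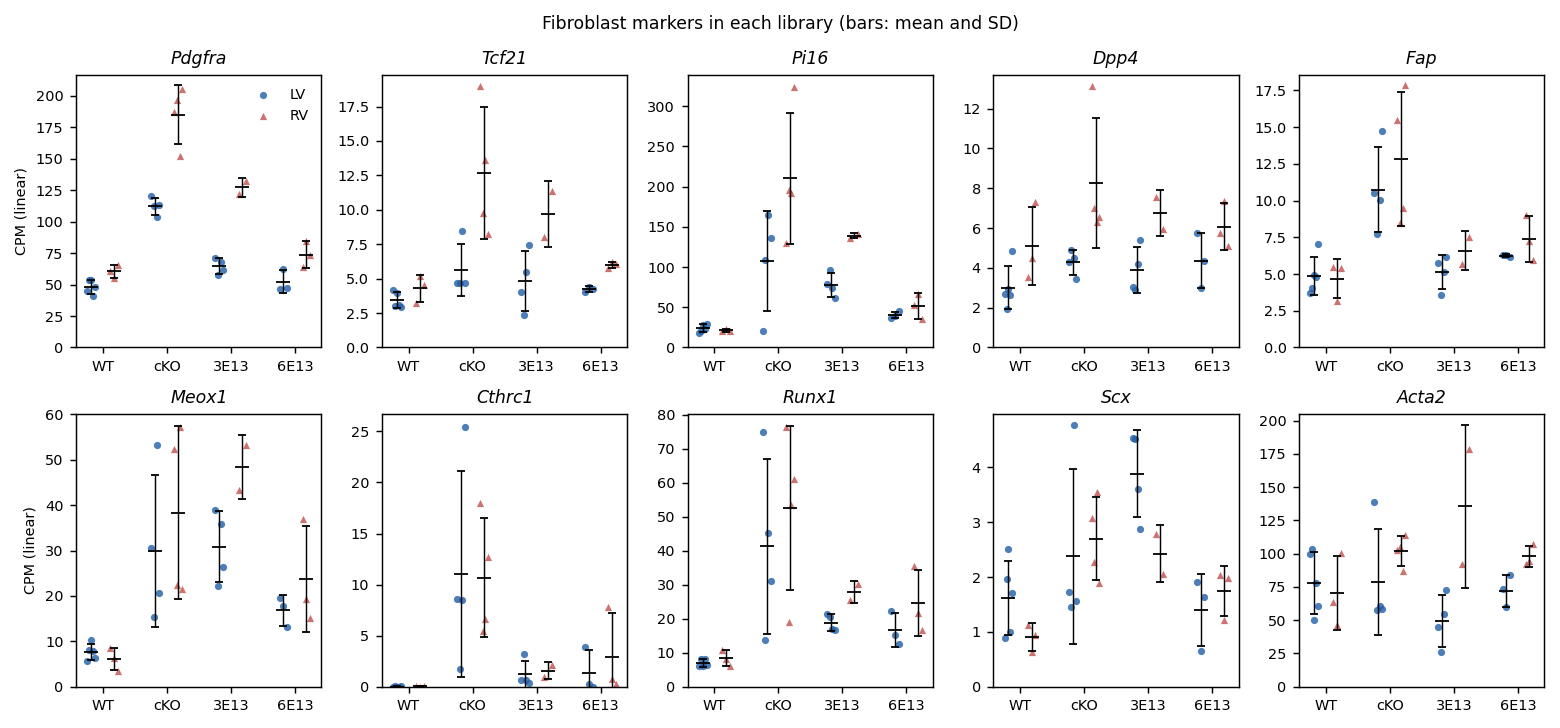
CPM on a linear axis for each of the 10 members in every library, LV as circles and RV as triangles, with the mean and SD of each of the 4 groups. Pdgfra in the 4 cKO LV libraries stayed between 103 and 120 CPM, while Runx1 in the same libraries ran from 13.7 to 74.9 CPM and Cthrc1 from 1.72 to 25.4 CPM.

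Among the activation genes, Fap, a serine peptidase of activated stroma, had the smallest rise of those called in the LV. Its WT LV libraries held 3.69, 4.02, 4.90, 4.77 and 7.01 CPM and its cKO LV libraries 10.5, 7.72, 10.0 and 14.7 CPM. In the RV the values were 5.46, 3.17 and 5.44 CPM in WT and 15.5, 8.49, 9.49 and 17.8 CPM in cKO. All cKO libraries were above all WT libraries in both ventricles. The change was 1.14 ± 0.21 (log2, SE, adjusted p = 9.00e-04) in the LV and 1.45 ± 0.31 (log2, SE, adjusted p = 0.00304) in the RV. Relative to Pdgfra of the same library, Fap moved by less than the spread between libraries: the log2 difference of Fap from Pdgfra was -3.34 ± 0.40 (SD, n = 5) in the WT LV and -3.42 ± 0.38 (SD, n = 4) in the cKO LV, and -3.73 ± 0.34 (n = 3) and -3.91 ± 0.46 (n = 4) in the RV.

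Meox1, a homeobox transcription factor that is switched on in stressed fibroblasts of mouse hearts, rose in both ventricles. The WT LV libraries held 5.67, 8.03, 10.3, 7.96 and 6.29 CPM and the cKO LV libraries 30.5, 15.4, 53.3 and 20.6 CPM. The RV held 8.56, 6.29 and 3.58 CPM in WT and 52.3, 22.3, 57.3 and 21.5 CPM in cKO. The cKO hearts fell into a higher pair (animals 177 and 257) and a lower pair (180 and 264) in both ventricles, all above the WT libraries. The fitted change was 1.97 ± 0.30 (log2, SE, adjusted p = 2.12e-04), or 3.91-fold, in the LV and 2.65 ± 0.47 (log2, SE, adjusted p = 0.00102), or 6.27-fold, in the RV. Its paralogue Meox2, a homeobox gene of endothelium, fell by 0.49 ± 0.18 (adjusted p = 0.0447) in the LV and by 0.97 ± 0.24 (adjusted p = 0.00764) in the RV.

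Cthrc1, a secreted protein of collagen-producing fibroblasts, was nearly absent in WT and detected in every cKO library. The 5 WT LV libraries held 0, 0.041, 0, 0 and 0.038 CPM, 2 reads in all, and the cKO LV libraries 8.57, 1.72, 8.49 and 25.4 CPM, 1416 reads in all. In the RV WT held 0.049, 0 and 0.041 CPM and cKO 17.971, 5.43, 6.64 and 12.7 CPM. The ratio of the summed rates was 714 in the LV (95% exact interval 197 to 5900) and 362 in the RV (99.9 to 2991), where the interval covers counting error only and its width comes from the 2 reads of each WT group. The test called it in both ventricles (adjusted p = 2.70e-04 and 9.86e-04), but its fitted log2 change depends on the prior count and is not quoted as a size. Within the cKO LV the lowest and highest hearts, 180 and 264, were at 1.72 and 25.4 CPM.

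Runx1, a transcription factor of blood formation that stromal cells also switch on, held 6.00, 8.11, 6.22, 8.28 and 6.52 CPM in the WT LV and 74.9, 13.7, 45.4 and 31.1 CPM in the cKO LV. RV libraries held 10.9, 8.10 and 6.18 CPM in WT and 76.5, 19.2, 53.5 and 61.1 CPM in cKO. Animal 177 was the highest and animal 180 the lowest in both ventricles, and no cKO library overlapped WT. The rise was 2.56 ± 0.34 (log2, SE, adjusted p = 6.66e-05), or 5.88-fold, in the LV and 2.65 ± 0.43 (log2, SE, adjusted p = 6.32e-04) in the RV. All 3 Runx genes rose: Runx2, the factor of bone formation, by 2.21 ± 0.23 (log2, SE, adjusted p = 1.09e-05) in the LV and 2.49 ± 0.28 (log2, SE, adjusted p = 6.33e-05) in the RV, Runx3, a factor of lymphocytes and sensory neurons, by 3.18 ± 0.47 (log2, SE, adjusted p = 1.50e-04) and 4.04 ± 0.59 (log2, SE, adjusted p = 3.23e-04), and Cbfb, the partner that all Runx proteins bind, by 0.66 ± 0.16 (log2, SE, adjusted p = 0.00457) and 0.50 ± 0.15 (log2, SE, adjusted p = 0.0196).

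Macrophage markers moved with Runx1. All 9 macrophage genes measured rose in both ventricles, with medians of 2.20 and 2.14 on the log2 scale, and their summed level was 133 to 163 CPM in the WT LV and 264 to 1263 CPM in the cKO LV. The hearts with the lowest and highest Runx1 in the cKO LV, 180 and 177, were also those with the lowest and highest macrophage sum. Ptprc, the leukocyte surface gene CD45, rose by 2.26 ± 0.44 (log2, SE, adjusted p = 0.00106) in the LV, and the log2 difference of Runx1 from Ptprc within a library was -1.10 ± 0.22 (SD, n = 5) in the WT LV and -0.58 ± 0.39 (SD, n = 4) in the cKO LV. Over the 16 LV libraries the 2 genes whose log2 CPM correlated best with Runx1, out of 9583 genes that averaged 5 CPM or more, were Mpeg1 (Pearson r = 0.98) and Cybb (r = 0.97), both genes of phagocytes. Over the 12 RV libraries the same pairs gave 0.93 and 0.96, and within the LV groups both gave 0.91. The part of macrophages in the Runx1 level was not tested.

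Scx, the tendon transcription factor scleraxis, was low in every library, between 0.634 and 4.77 CPM. It held 0.898, 1.97, 2.51, 0.990 and 1.72 CPM in the WT LV and 1.74, 1.45, 4.77 and 1.57 CPM in the cKO LV, where animal 257 alone was above the WT range. The RV held 1.13, 0.634 and 0.947 CPM in WT and 3.07, 2.28, 3.56 and 1.89 CPM in cKO, without overlap. The difference was 0.55 ± 0.41 (log2, SE, adjusted p = 0.328) in the LV, which became -0.047 without animal 257, and the rise 1.58 ± 0.35 (log2, SE, adjusted p = 0.00419) in the RV. Bop1, the gene around it on the other strand, held 8.69 to 12.5 CPM in the WT LV and 9.10 to 17.6 CPM in the cKO LV, and 9.005 to 10.5 CPM and 9.12 to 10.4 CPM in the RV. Of other tendon and valve genes, Fmod, a collagen-binding proteoglycan, rose by 5.07 ± 0.67 (log2, SE, adjusted p = 6.35e-05) in the LV and 7.32 ± 0.35 (log2, SE, adjusted p = 1.23e-06) in the RV. Of this list of 6 tendon and valve genes, 2 of the 3 that passed the filter were higher in the cKO LV, and in the RV 4 of 5 were higher and 1 lower. Genes nearly absent in WT can pass the filter only through the groups where they are higher, so these counts are a description. The tendon-specific Tnmd was at 0 in every WT library, at 0 to 0.337 CPM in the cKO LV and at 0.474 to 1.08 CPM in the 4 cKO RV libraries. The tendon factor Mkx went the other way in the RV, from 0.394 to 1.44 CPM in WT to 0 to 0.154 CPM in cKO. The part of tendon or valve tissue in the Scx levels was not tested.

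Acta2, smooth muscle actin, showed no rise that passed the test on counts. The WT LV libraries held 99.4, 103, 50.5, 77.8 and 60.4 CPM and the cKO LV libraries 139, 57.3, 60.6 and 58.4 CPM. In cKO 3 of the 4 hearts lay between 57.3 and 60.6 CPM, below the WT median of 77.8 CPM, and animal 177 was above every WT library. The LV difference of 0.01 ± 0.31 (log2, SE, adjusted p = 0.986) became -0.42 with animal 177 left out. In the RV WT held 63.8, 46.2 and 101 CPM and cKO 103, 105, 86.9 and 114 CPM, a difference of 0.54 ± 0.26 (log2, SE, adjusted p = 0.123). Of 12 genes listed for smooth muscle and pericytes none rose and 2 fell in the LV, while in the RV 6 rose and 2 fell. The 2 that fell in the LV were Smtn, a smooth muscle cytoskeletal gene, by 0.48 ± 0.08 (adjusted p = 4.64e-04), and the channel subunit Abcc9, by 1.12 ± 0.22 (adjusted p = 0.00125). Abcc9 is not restricted to pericytes. Myh11, smooth muscle myosin, differed by -0.38 ± 0.22 (log2, SE, adjusted p = 0.201) in the LV and rose by 0.91 ± 0.30 (log2, SE, adjusted p = 0.03) in the RV. The log2 difference of Acta2 from Myh11 within a library was 0.92 ± 0.25 (SD, n = 5) in the WT LV and 1.24 ± 0.88 (SD, n = 4) in the cKO LV.

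Collagen and matrix genes, which activated fibroblasts secrete, rose together with the members. All 12 measured rose in both ventricles, with medians of 4.41 in the LV and 4.84 in the RV on the log2 scale. Thbs4 rose by 4.02 ± 0.26 (log2, SE, adjusted p = 2.79e-07) in the LV, Col8a1 by 3.36 ± 0.26 (log2, SE, adjusted p = 9.51e-07), Ltbp2 by 6.40 ± 0.51 (log2, SE, adjusted p = 1.26e-06) and Cilp by 5.15 ± 0.43 (log2, SE, adjusted p = 1.86e-06). Of 12 further genes of resident fibroblasts 9 rose in the LV and 11 in the RV, with medians of 0.87 and 1.35, led by Mfap5, a microfibril gene of the Pi16 population, at 3.79 ± 0.31 (log2, SE, adjusted p = 1.59e-06) and followed by Pcolce at 1.20 ± 0.14 (log2, SE, adjusted p = 2.64e-05). Pdgfrb, the PDGF receptor of mural cells and fibroblasts, rose by 0.59 ± 0.13 (log2, SE, adjusted p = 0.00288) in the LV. Of the PDGF ligands, Pdgfc rose in the LV, 1.05 ± 0.30 (log2, SE, adjusted p = 0.0123), while Pdgfa differed by -0.12 ± 0.19 (log2, SE, adjusted p = 0.667). Endothelial genes split (2 of 8 rose and 1 fell in each ventricle), and of 8 cardiomyocyte genes 4 fell in the LV and 6 in the RV.

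**Figure D2:**
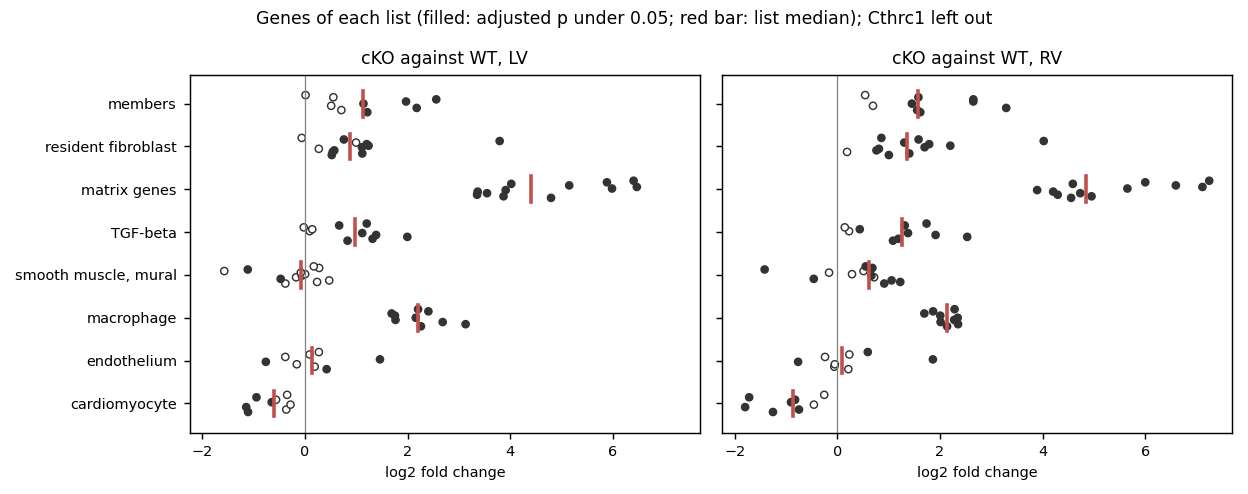
Log2 fold change of cKO against WT for the members and 7 other gene lists, in the LV and the RV, with 1 point per gene, filled where the adjusted p was under 0.05, and a red bar at the list's median; Cthrc1, whose fitted change rests on 2 WT reads, is left out. All 12 matrix genes lie above 3 on the log2 scale in both ventricles, and the LV smooth muscle genes lie between -1.57 and 0.47.

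On the scale per length (TPM, a transcript abundance corrected for transcript length), Acta2 was the most abundant member in the WT LV, at 35.4 ± 10.7 TPM (SD, n = 5), followed by Pi16 at 7.66 ± 1.68 TPM and Pdgfra at 5.67 ± 0.80 TPM, whose ranges overlapped (6.28 to 9.93 and 4.46 to 6.65 TPM). Tcf21, Meox1, Fap, Runx1 and Scx followed between 2.63 and 1.59 TPM with overlapping ranges, then Dpp4 at 0.83 ± 0.41 TPM and Cthrc1 at 0.017 ± 0.023 TPM. In the cKO RV Pi16 was first, at 102 ± 29.6 TPM (SD, n = 4), ahead of Acta2 at 67.5 ± 10.4 TPM, and their ranges overlapped by less than 1 TPM (79.7 to 145 and 56.1 to 80.5 TPM). Cthrc1 moved from the last place in WT to 20.2 ± 13.0 TPM in the cKO RV, level with Runx1 (20.3 ± 10.8 TPM) and Meox1 (20.3 ± 12.4 TPM). Dpp4 was the lowest member in the cKO RV, at 2.79 ± 1.57 TPM. The TMM factors, 0.774 to 0.855 in the WT RV and 1.09 to 1.51 in the cKO RV, do not enter TPM. On this scale Acta2 did not overlap between the RV groups, at 17.0 to 35.0 TPM in WT and 56.1 to 80.5 TPM in cKO. Neither did Dpp4, at 0.687 to 1.02 TPM in the WT RV and 1.69 to 5.12 TPM in the cKO RV. In the LV both genes overlapped between WT and cKO in TPM as well.

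TN-401 was then compared with untreated cKO animals. The treated groups share the cKO libraries with the comparison above, so a high cKO library enters both. At 3E13 in the LV 3 members fell (Pdgfra, Fap and Runx1) and none rose, where 6.25% of genes tested fell, and the members' median change was -0.57 against -0.03 over all genes tested. At 6E13 in the LV 4 members fell (Pdgfra, Fap, Pi16 and Runx1), where 8.16% of genes fell, with a median of -0.81. In the RV 1 member fell at 3E13 (Pdgfra), where 3.83% of genes fell, and 3 fell at 6E13 (Pdgfra, Pi16 and Tcf21), where 10.9% of genes fell.

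Pdgfra fell with both doses in both ventricles. The 3E13 LV libraries held 71.4, 57.9, 67.9 and 61.3 CPM and the 6E13 LV libraries 46.4, 62.7 and 47.3 CPM, all below the lowest cKO LV library. In the RV the 3E13 libraries held 122 and 133 CPM and the 6E13 libraries 63.6, 84.5 and 73.5 CPM. The LV changes against cKO were -0.79 ± 0.12 (log2, SE, adjusted p = 0.00145) and -1.11 ± 0.13 (log2, SE, adjusted p = 1.80e-04). The RV change was -1.33 ± 0.13 (log2, SE, adjusted p = 1.75e-04) at 6E13. At 3E13 in the RV, with 2 libraries, it was -0.54 ± 0.15 (log2, SE, adjusted p = 0.0468), a call that was lost in 10 of 12 fits that left out 1 animal and in 4 of 8 other settings.

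Fap held 5.74, 3.58, 5.11 and 6.16 CPM in the 3E13 LV and 6.31, 6.30 and 6.13 CPM in the 6E13 LV, all below the lowest cKO heart. The changes were -1.06 ± 0.23 (log2, SE, adjusted p = 0.0106) and -0.78 ± 0.25 (log2, SE, adjusted p = 0.0424), and the second was lost in 10 of 16 fits without 1 animal. In the RV, where the libraries held 5.66 and 7.52 CPM at 3E13 and 9.02, 7.22 and 5.92 CPM at 6E13, the differences were -0.96 ± 0.34 (log2, SE, adjusted p = 0.103) and -0.79 ± 0.30 (log2, SE, adjusted p = 0.0766).

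Pi16 in the LV held 78.4, 96.8, 74.2 and 61.3 CPM at 3E13 and 37.2, 38.8 and 44.7 CPM at 6E13. In cKO 3 hearts were above all treated hearts and animal 177 was below them all. The change at 6E13 was -1.42 ± 0.44 (log2, SE, adjusted p = 0.0404), and -1.76 without animal 177. That call was lost in 12 of 16 fits without 1 animal. In the RV Pi16 held 137 and 142 CPM at 3E13 and 53.4, 66.5 and 35.0 CPM at 6E13, and all 6E13 libraries were below all cKO libraries. The RV change at 6E13, -2.02 ± 0.29 (log2, SE, adjusted p = 8.77e-04), was called in each fit without 1 animal and in all 8 other settings. At 3E13 the differences from cKO were -0.47 ± 0.40 (log2, SE, adjusted p = 0.469) in the LV and -0.59 ± 0.31 (log2, SE, adjusted p = 0.254) in the RV.

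Runx1 held 21.5, 20.4, 16.9 and 16.7 CPM in the 3E13 LV and 22.2, 15.3 and 12.7 CPM in the 6E13 LV, all above the WT libraries and below 3 of the 4 cKO hearts. The LV changes were -1.13 ± 0.35 (log2, SE, adjusted p = 0.0481), called in 1 of 16 fits without 1 animal, and -1.30 ± 0.39 (log2, SE, adjusted p = 0.0325), called in 12 of 16. Without animal 177 they were -0.67 and -0.84 and neither was called. In the RV the differences were -0.92 ± 0.46 (log2, SE, adjusted p = 0.228) and -1.09 ± 0.40 (log2, SE, adjusted p = 0.0714). Runx2 fell by 1.58 ± 0.25 (adjusted p = 0.00252) at 3E13 and by 1.71 ± 0.27 (adjusted p = 0.00141) at 6E13 in the LV. Macrophage genes were lower as well: 4 of 9 fell at 3E13 and 5 of 9 at 6E13 in the LV.

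Tcf21 fell at 6E13 in the RV, where its libraries held 5.75, 6.19 and 6.05 CPM, all below the lowest cKO library, -1.08 ± 0.28 (log2, SE, adjusted p = 0.0172). That call was lost when any 1 of the 3 6E13 animals was left out. In the LV the difference at 6E13 was -0.41 ± 0.32 (log2, SE, adjusted p = 0.401) and at 3E13 -0.21 ± 0.29 (log2, SE, adjusted p = 0.677).

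Meox1 gave no call against cKO at either dose. The 3E13 LV libraries held 38.8, 22.2, 35.9 and 26.5 CPM and the 3E13 RV libraries 43.3 and 53.3 CPM, inside the cKO range in each ventricle. The differences from cKO were 0.04 ± 0.31 (log2, SE, adjusted p = 0.949) and 0.33 ± 0.46 (log2, SE, adjusted p = 0.707). At 6E13 it held 19.5, 17.9 and 13.1 CPM in the LV and 37.0, 19.3 and 15.1 CPM in the RV, with differences of -0.83 ± 0.34 (log2, SE, adjusted p = 0.112) and -0.69 ± 0.42 (log2, SE, adjusted p = 0.279). The log2 difference of Meox1 from Pdgfra of the same LV library was -2.68 ± 0.30 (SD, n = 5) in WT, -2.06 ± 0.82 (n = 4) in cKO, -1.10 ± 0.24 (n = 4) at 3E13 and -1.64 ± 0.34 (n = 3) at 6E13, and the highest WT value (-2.37) lay below the lowest treated value (-1.85).

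Cthrc1 held 0.702, 3.21, 0.648 and 0.393 CPM in the 3E13 LV and 3.89, 0.263 and 0 CPM in the 6E13 LV. In the RV it held 0.997 and 2.17 CPM at 3E13 and 7.85, 0.737 and 0.265 CPM at 6E13. In the LV animal 182 stood above the others at 3E13 and animal 250 at 6E13, and animal 250 was also the highest 6E13 RV library. The differences from cKO were -3.18 ± 1.03 (log2, SE, adjusted p = 0.0559) and -2.94 ± 1.12 (log2, SE, adjusted p = 0.0858) in the LV and -2.75 ± 1.08 (log2, SE, adjusted p = 0.132) and -1.84 ± 0.87 (log2, SE, adjusted p = 0.156) in the RV, all short of the threshold. Of 12 matrix genes 8 fell at 3E13 and 11 at 6E13 in the LV, and 5 and 10 in the RV.

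Dpp4, Scx and Acta2 also gave no call between treated and cKO hearts. Dpp4 held 2.89 to 5.75 CPM over the 7 treated LV libraries and 5.08 to 7.58 CPM over the 5 treated RV libraries. Scx held 4.54, 4.52, 3.61 and 2.88 CPM in the 3E13 LV, where 3 of the 4 cKO hearts were at or below 1.74 CPM, and 0.656 to 1.92 CPM in the 6E13 LV. Acta2 held 44.8, 26.0, 54.7 and 72.7 CPM in the 3E13 LV and 73.1, 59.9 and 83.8 CPM in the 6E13 LV. Its RV libraries held 92.4 and 179 CPM at 3E13 and 92.6, 94.8 and 107 CPM at 6E13.

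Against WT, 3 members were still higher at 3E13 in the LV, where 1.97% of genes tested were higher. They were Meox1, 2.01 ± 0.30 (log2, SE, adjusted p = 0.0026), Pi16, 1.70 ± 0.38 (log2, SE, adjusted p = 0.0276), and Runx1, 1.42 ± 0.34 (log2, SE, adjusted p = 0.0364). The Meox1 call held in all 16 fits without 1 animal, the Pi16 call in 9 and the Runx1 call in 6. In the RV at 3E13 4 members were higher, where 5.8% of genes were higher: Meox1, 2.98 ± 0.51 (log2, SE, adjusted p = 0.0054), Pi16, 2.69 ± 0.33 (log2, SE, adjusted p = 0.00111), Pdgfra, 1.07 ± 0.15 (log2, SE, adjusted p = 0.00222), and Runx1, 1.73 ± 0.47 (log2, SE, adjusted p = 0.0462), which was called in 3 of 12 fits without 1 animal.

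At 6E13 no member differed from WT in edgeR, where 0.0792% of genes were higher in the LV and 0.849% in the RV. At an unadjusted p under 0.05, 1025 genes differed in the LV and 2098 in the RV, and DESeq2 called 1 member in the LV and 4 in the RV, where it called 0.593% and 3.99% of the genes it tested. Cthrc1 summed to 118 times the WT rate in the LV (95% exact interval 32.0 to 981, adjusted p = 0.262 in edgeR) and 112 times in the RV (30.7 to 930, adjusted p = 0.0742). Animal 250 held 140 of the 146 LV counts and 247 of the 273 RV counts. Without that animal, a setting chosen after the data had been seen, the ratio was 8.71 in the LV (1.56 to 88.3) and 17.4 in the RV (4.36 to 152), over the 2 remaining animals. The next smallest adjusted p values were those of Pi16 in the RV, 1.26 ± 0.30 (log2, SE, adjusted p = 0.0771), and Meox1 in the RV, 1.96 ± 0.47 (log2, SE, adjusted p = 0.085). In both, every 6E13 library was above every WT library. Pdgfra differed from WT by 0.11 ± 0.12 (log2, SE, adjusted p = 0.995) in the LV. Fap differed by 0.36 ± 0.23 (log2, SE, adjusted p = 0.94).

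The fitted difference from WT can be set beside that of untreated cKO for the members that rose other than Cthrc1, with the caution that both rest on the same WT libraries and that the ratio carries both errors. In the LV the difference left at 3E13 was 34.5% for Pdgfra, 55.8% for Runx1, 78.4% for Pi16 and 102% for Meox1. At 6E13 in the LV it was 31.2% for Fap, 34.8% for Pi16, 49.1% for Runx1 and 57.8% for Meox1. No share is given for Fap at 3E13 or Pdgfra at 6E13 in the LV, because leaving out 1 animal turned the direction of their difference from WT (Fap without WT 248 or 3E13 253, Pdgfra without 6E13 631). In the RV it ran from 33.9% for Fap to 113% for Meox1 at 3E13 and from 17.9% for Pdgfra to 74.0% for Meox1 at 6E13. Of the shares given, that of Meox1 was the largest in each of these 4 comparisons.

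The 2 doses were not told apart for any member, in either ventricle. Transgene levels of the 2 doses overlapped in the LV and not in the RV, and the part of transgene level in this comparison was not tested. Of all genes tested, 0.0122% differed in the LV and 0.0404% in the RV. At an unadjusted p under 0.05, 913 and 1497 genes differed, and DESeq2 called no member in the LV and 2 in the RV, where it called 0.274% and 1.53% of the genes it tested. In the RV the differences were -0.78 ± 0.15 (log2, SE, adjusted p = 0.133) for Pdgfra and, for Pi16, -1.43 ± 0.32 (log2, SE, adjusted p = 0.171). In both the 3 6E13 libraries were below the 2 3E13 libraries.

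The RV and LV of the same animal were compared in a fit with the animal as a block. In cKO hearts 2 members were higher in the RV, where 1.89% of genes tested were higher. Pdgfra was higher by 0.58 ± 0.08 (log2, SE, adjusted p = 0.00442) and Tcf21 by 1.01 ± 0.22 (log2, SE, adjusted p = 0.0295), each in 4 of 4 animals. In the same comparison 3 of the 6 epicardial genes that passed the filter were higher in the RV, with a list median of 2.18 on the log2 scale. The 3 atrial muscle genes were also higher, with a median of 8.84. Their sum in the cKO RV was 303 and 232 CPM in animals 180 and 257, and 10.3 and 1.82 CPM in animals 177 and 264. Genes low elsewhere can pass the filter through the cKO RV alone, so both counts are a description. Tcf21 in the cKO RV had the same order over animals 177, 257, 180 and 264 (18.996, 13.6, 9.78 and 8.27 CPM) as Upk3b (3.01, 2.78, 2.02 and 0.232 CPM), while Pdgfra had not. The sum of the 7 epicardial genes, a list that holds Upk3b, had another order, at 31.5, 30.3, 35.9 and 34.9 CPM in the same animals. The part of epicardium or atrial tissue in either difference was not tested. Within animals the Pdgfra difference ran from 0.42 to 0.74 on the log2 scale and the Tcf21 difference from 0.55 to 1.87. The Tcf21 call was lost without animal 180 or 264. Pi16 was higher in the RV of 4 of 4 animals, with a difference from 0.08 in animal 257 to 2.50 in animal 177, and missed the threshold, 1.08 ± 0.31 (log2, SE, adjusted p = 0.0715).

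The 3E13 group has 2 such animals and was not tested. In WT and 6E13 hearts edgeR called no member between ventricles, where 0.00556% and 0.0111% of genes differed. At an unadjusted p under 0.05, 1539 and 1000 genes differed. Pdgfra was higher in the RV of all 12 animals with both ventricles, by 0.06 to 0.31 in WT and 0.30 to 0.52 at 6E13. The cKO effect itself was not shown to differ between ventricles for any member, where 0.0111% of genes differed and 1874 did at an unadjusted p under 0.05. The RV effect minus the LV effect was 1.52 ± 0.47 (log2, SE, adjusted p = 0.299) for Pi16, 0.78 ± 0.34 (log2, SE, adjusted p = 0.451) for Tcf21 and 0.35 ± 0.12 (log2, SE, adjusted p = 0.338) for Pdgfra.

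**Figure D3:**
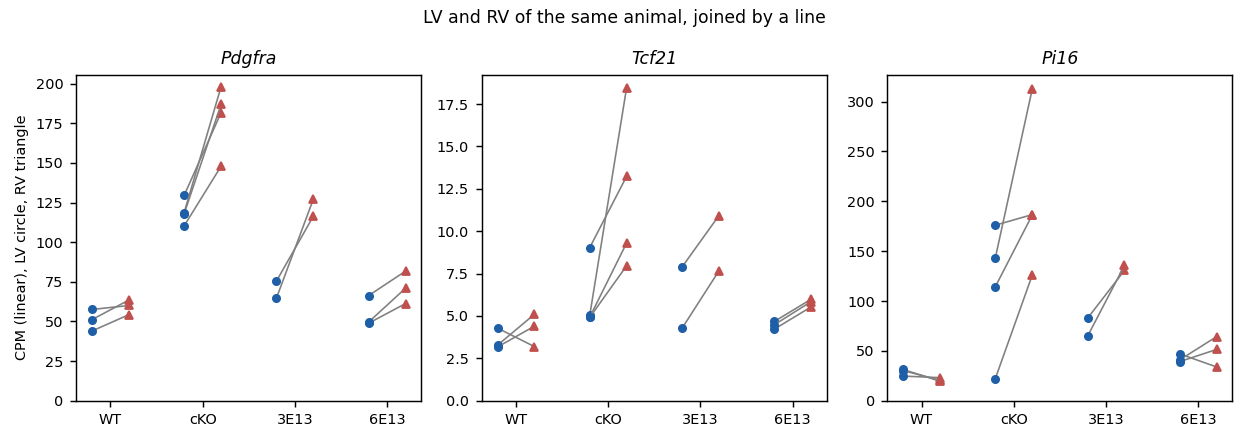
CPM on a linear axis, scaled over the libraries of both ventricles together, of Pdgfra, Tcf21 and Pi16 in the 12 animals with both ventricles, LV as circles and RV as triangles joined by a line. In the 4 cKO animals every Pdgfra line rises from LV to RV, by 0.42 to 0.74 on the log2 scale, and the Pi16 line of animal 177 starts near the WT level.

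The genes whose LV levels were most like those of each member were listed as a description, over 16 LV libraries that include the shift between groups, so that any gene that moved with the deletion scores high. The correlation after subtracting the group means is given for some pairs as well. Cthrc1 was most like the collagens Col5a1 (Pearson r = 0.97) and Col1a1 (r = 0.96), which gave 0.98 for both over the 12 RV libraries and 0.90 and 0.92 within the LV groups. Pi16 was most like Pamr1 (0.96 in the LV and 0.87 in the RV) and Nbl1 (0.95 in both), an inhibitor of BMP signalling, with 0.90 and 0.91 within the LV groups. Meox1 was most like Pmepa1 (0.93 and 0.88), a target of TGF-beta signalling, and Capn5 (0.92 and 0.85). Pdgfra was most like Mib1 (0.97 and 0.87) and Elmo1 (0.96 and 0.83), which gave 0.72 and 0.61 within the LV groups. Fap was most like Il1rap (0.91 and 0.75) and Map3k2 (0.91 and 0.81), and Tcf21 most like Gucy1a3 (0.84 and 0.92) and Rftn2 (0.81 and 0.84). Dpp4 was most like H2-Eb1, an MHC class II gene, at 0.86 in the LV but 0.41 in the RV, followed by a row that the table names only with a number. Scx was most like Nfyb (0.84 and 0.43) and Atf5 (0.78 and 0.87), and Acta2 most like Tmtc3 (0.84 and -0.11) and Jak1 (0.83 and -0.0017), so that the LV likeness of Acta2 was not seen in the RV.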

How the data were processed

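RNA was measured by sequencing of ventricular tissue. The authors quantified trimmed reads with Salmon 1.8.0 against GRCm39 transcripts, and deposited estimated counts per gene, TPM and effective lengths. The labels name both a polyA selection and a Ribo-Zero kit, and the strand setting of the quantification is not given in the sources used here. The deposited estimated counts were rounded, filtered with filterByExpr and tested in edgeR 4.0.16 (TMM, quasi-likelihood F test, Benjamini-Hochberg adjustment, threshold 0.05) in R 4.3.3, with 1 fit of 4 groups per ventricle. For the 12 animals that gave both ventricles, RV was set against LV in a fit blocked by animal, since the labels give both pieces the same animal number. Pairs of libraries within groups were checked for copies, and the lowest of 38 chi-squared values per degree of freedom was 17.9. A row without a gene name held at most 0.00097% of a library and was left out. Alternatives used RLE factors, no filter, DESeq2 1.42.0, limma 3.58.1 on log2(TPM + 1) without mitochondrial genes, effective length offsets, only the groups compared, an expression-based sex covariate, and leaving out each animal. The scripts were tested on simulated data. The members and gene lists were chosen with earlier results of these data known. All 10 members were named in each comparison, with up to 4 genes of each other list by adjusted p in cKO against WT LV, their partners and paralogues, and the 2 genes most like each member (log2(CPM + 0.5), mean CPM of at least 5). Bop1, Upk3b, Tnmd, Mkx, Myl7 and Myh11 were named after their values were seen.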

Additional observations from a re-analysis of the deposited data

Results flagged for a closer look

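Each of the 10 members was checked in each group of 4 or 5 libraries, 40 sets of CPM values in all. In 5 of the 40 sets a single library stood apart by Dixon's criterion. Chance gives about 1 in 20 for independent sets. These sets share libraries between genes, so the count cannot be set against that rate. Animal 257 stood above the other cKO LV libraries for Tcf21, at 8.46 CPM with 0.998 of the group's range below it, and for Scx, at 4.77 CPM (0.914 of the range). Animal 177 stood above the other cKO libraries for Acta2 in the LV, at 139 CPM (0.960), and for Dpp4 in the RV, at 13.2 CPM (0.896). Animal 182 stood above the other 3E13 LV libraries for Cthrc1, at 3.21 CPM (0.890). In the LV of animal 177 the cardiomyocyte genes summed to 33592 CPM, against 66436 to 80306 CPM in the other 3 cKO hearts, and the matrix genes to 7365 CPM, against 2772 to 9161 CPM. The part of tissue composition in these values was not tested.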

How the results depend on the processing

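Alternatives were followed for all members in cKO against WT. For treated against cKO or WT they were followed for Pdgfra, Tcf21, Pi16, Fap, Meox1 and Runx1, with Cthrc1 added against cKO. Between doses and between ventricles they were followed for Pdgfra, Tcf21 and Pi16. Of these values, 1656 kept their direction and side of the threshold under an alternative, 109 lost the call, 62 gained one and 18 turned direction. Dpp4, Scx and Acta2 in treated hearts were not followed. In cKO against WT each called member stayed called under every alternative tried, 7 in the LV and 8 in the RV, and in each of the 16 LV and 12 RV fits without 1 animal.

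Fitting only the 2 groups compared left 49 LV genes called for 3E13 against cKO in place of 1932 (1 member in place of 3), 305 for 6E13 against cKO in place of 2759 (1 member in place of 4) and, in the RV, 78 for 3E13 against cKO in place of 1488 (0 members in place of 1). Against WT the same setting called 1776 LV genes at 3E13 in place of 411 (5 members in place of 3), and at 6E13 182 LV genes in place of 14 (2 members in place of 0) and 78 RV genes in place of 151. Between doses in the RV it called 82 genes in place of 7. These fits hold fewer samples. DESeq2 called 2951 genes for 3E13 against cKO in the LV and 2813 in the RV (2 members), 982 and 2170 for 3E13 against WT (5 members in the LV and 8 in the RV, in place of 4), 97 and 634 for 6E13 against WT (1 and 4 members), and 44 and 244 between doses (2 members in the RV), and 5 members for 6E13 against cKO in the RV in place of 3. limma on log2(TPM + 1) called 175 LV genes and 1 member for 3E13 against WT and 3 LV genes for 6E13 against WT. In the RV it called 2810 genes and 3 members for 3E13 against cKO, 6 members for 6E13 against cKO, 559 genes (in place of 1278) for 3E13 against WT and 21 for 6E13 against WT. Length offsets gave 3 LV genes for 6E13 against WT, 1 between doses (in place of 2), 1 member for 6E13 against cKO in the LV, and 956 genes and 0 members for 3E13 against cKO in the RV. The sex covariate gave 1 LV gene and 4 RV genes between doses, 2 members for 6E13 against cKO in the LV, 0 members for 3E13 against cKO in the RV and 41 RV genes for 6E13 against WT. Without a filter 3E13 against cKO in the RV had 0 members, 6E13 against WT in the RV 266 genes and 3 members, and the doses in the RV 25 genes. Without the 2 cKO RV libraries with most Myl7, chosen after seeing the data, 3E13 against cKO had 2240 genes and 3 members, 6E13 against cKO 5 members, and 6E13 against WT 240 genes and 1 member. Where a member count stands without the gene count of the same fit, it cannot be set against the share of all genes called. The cause of these shifts was not tested.

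Without 1 animal, LV calls ran from 728 to 2714 genes for 3E13 against cKO, 1169 to 3454 (1 to 6 members) for 6E13 against cKO, 184 to 1460 (1 to 5 members) for 3E13 against WT, 2 to 34 for 6E13 against WT and 0 to 3 between doses. RV calls ran from 8 to 1719 genes (0 to 2 members), 2039 to 3989 (2 to 5 members), 378 to 1644, 15 to 279 (0 to 2 members) and 0 to 24 in the same order.

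In the paired comparison of ventricles, leaving out the animal block called 66 genes in cKO in place of 733 (1 member in place of 2), and 0 in WT, in 6E13 and for the difference of the cKO effects, in place of 1, 2 and 2. Without 1 animal these paired fits called 127 to 1051 genes (1 to 3 members) in cKO, 0 to 11 in WT, 0 to 6 in 6E13 and 0 to 40 for the difference.

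Among the log2 changes followed, those that turned direction were uncalled. In the LV they were Meox1 in 3E13 against cKO, 0.04 (-0.11 in limma, -0.18 to 0.48 without 1 animal), Acta2 in cKO against WT, 0.01 (-0.061 with length offsets, -0.42 to 0.13), Scx in cKO against WT, 0.55 (-0.047 to 0.77), Fap in 3E13 against WT, 0.08 (-0.018 to 0.25), Tcf21 in 3E13 against cKO, -0.21 (-0.49 to 0.059), Tcf21 between doses, -0.20 (-0.42 to 0.086), and Pdgfra in 6E13 against WT, 0.11 (-0.047 to 0.18). Pi16 in RV against LV at 6E13 was 0.20 (-0.041 to 0.52). Depth limits Cthrc1 and Scx most, since the WT groups held 2 Cthrc1 reads each, and 2 RV libraries at 3E13 limit each RV result at that dose.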

Other observations

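Genes of TGF-beta signalling, a pathway that activates fibroblasts, also rose in cKO hearts: 7 of 10 rose in the LV and 8 of 10 in the RV, with medians of 0.97 and 1.25 on the log2 scale against 0.05 and 0.06 over all genes tested. The receptor Tgfbr2 rose by 1.11 ± 0.07 (log2, SE, adjusted p = 2.79e-07) in the LV, Tgfbr1 by 1.38 ± 0.10 (log2, SE, adjusted p = 9.44e-07), the ligand Tgfb3 by 1.99 ± 0.26 (log2, SE, adjusted p = 5.86e-05) and the feedback inhibitor Skil by 1.20 ± 0.08 (log2, SE, adjusted p = 5.48e-07). Against cKO 4 of the 10 fell at 3E13 and 6 at 6E13 in each ventricle, and none rose.

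Of 8 T cell genes listed, 7 passed the filter in each ventricle, and of these 3 rose in the cKO LV and 5 in the cKO RV. At 3E13 in the RV 4 of the 7 were higher than in cKO, where 4.77% of genes tested were higher, with a list median of 1.90 on the log2 scale, while 1 of 9 macrophage genes was lower and none higher. At 6E13 no T cell gene differed from cKO in either ventricle, with medians of 0.37 in the LV and 0.20 in the RV. The T cell list summed to 1.61 to 2.56 CPM in the WT RV and 20.5 to 31.6 CPM in the 3E13 RV. Genes this low can pass the filter through the groups where they are higher, so these counts are a description. These lists were not tested as sets, and the 3E13 RV group holds 2 libraries.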
